A study of Rattus norvegicus with 6 samples.

Results

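The Nrf2 pathway and the antioxidant enzymes were examined as 8 genes of 30452 listed in the count table for rat bone marrow mesenchymal stromal cells. These are plastic-adherent cells of the marrow, precursors of the bone, cartilage and fat lineages. The genes were chosen by identifier, and each carries the name given with that list: Nfe2l2 (ENSRNOG00000001548), Keap1 (ENSRNOG00000020878), Hmox1 (ENSRNOG00000014117), Nqo1 (ENSRNOG00000012772), Gclc (ENSRNOG00000006302), Sod1 (ENSRNOG00000002115), Sod2 (ENSRNOG00000019048) and Cat (ENSRNOG00000008364). The files do not pair identifiers with names. Wild-type cells from osteogenic differentiation cultures were either left blank (control, n = 3 libraries) or co-cultured with the AAT-ZCG hydrogel, an enzyme-linked material for bone defects in diabetes (hydrogel, n = 3 libraries). The labels do not spell the abbreviation out, and the amount of hydrogel and the time in culture are not given in the sources used here. The control received no material, so the parts of the hydrogel cannot be told apart. Separate animals or cultures are not named in the labels, so p-values measure only the spread between these libraries, which may be technical.

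Nrf2, encoded by Nfe2l2, is a transcription factor that switches on genes for detoxification and for the repair of oxidative damage. Keap1 binds Nrf2 in unstressed cells and directs it to degradation, and oxidants or electrophiles that modify Keap1 let Nrf2 accumulate, so the pathway is controlled mainly at the level of the protein. Nqo1, Gclc and Hmox1 are classical Nrf2 target genes. Hmox1 is also held down by the heme-sensing repressor Bach1. Superoxide dismutases turn superoxide into hydrogen peroxide, which catalase breaks down.

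The files deposited by the authors allowed a check of identity through gene length. FPKM, the count scaled by gene length and by library size, equalled the count divided by the library total and by a fixed length for each gene. The length implied by count, FPKM and library total was 2540 bp for Nfe2l2, 3162 bp for Keap1 and 3045 bp for Gclc. It was 1546 bp for Hmox1, 1619 bp for Nqo1, 2380 bp for Cat, 1597 bp for Sod1 and 3881 bp for Sod2. Each length was the same in all 6 libraries to within a relative 2.72e-10. The median over 14630 tested genes with a count in every library was 2761 bp, so Hmox1, Nqo1 and Sod1 were among the shorter genes. No transcript or protein lengths were at hand to set beside these values, so they describe the rows and do not settle the names. Whether any member shares reads with a related gene or pseudogene was not examined, and no marker of the cell type could be checked without names for the other identifiers.

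RefSeq promoter windows on the rat build GRCr8 were found by name for 7 of the 8 genes, all but Hmox1. They are shown for the 3 genes that rose with hydrogel, to give the DNA just before their start sites. Of the genes not called, Sod2 is shown, the only one of the 7 with a match before the start, marked as described next. Each sequence is the 250 bases before the start, 5′ to 3′ on the strand of the gene, and capitals mark a match to the core of the antioxidant response element, the DNA motif that Nrf2 binds.
Nqo1 (chr19:52220268-52220517, minus strand): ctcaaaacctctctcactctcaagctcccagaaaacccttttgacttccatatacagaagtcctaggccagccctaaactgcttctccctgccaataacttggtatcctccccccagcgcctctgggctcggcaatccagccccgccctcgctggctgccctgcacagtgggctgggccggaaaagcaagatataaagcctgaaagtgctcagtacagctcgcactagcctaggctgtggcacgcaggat
Gclc (chr8:87510226-87510475, plus strand): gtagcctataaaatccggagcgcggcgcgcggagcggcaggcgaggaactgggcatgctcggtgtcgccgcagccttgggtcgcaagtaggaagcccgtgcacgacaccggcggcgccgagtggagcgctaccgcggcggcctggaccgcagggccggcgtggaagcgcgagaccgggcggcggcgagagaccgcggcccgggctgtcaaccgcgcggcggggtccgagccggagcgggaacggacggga
Cat (chr3:110329527-110329776, minus strand): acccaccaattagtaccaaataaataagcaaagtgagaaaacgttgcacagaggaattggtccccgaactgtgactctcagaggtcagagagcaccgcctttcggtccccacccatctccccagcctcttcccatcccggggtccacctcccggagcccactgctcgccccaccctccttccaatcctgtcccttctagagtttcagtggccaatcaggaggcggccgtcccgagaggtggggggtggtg
Sod2 (chr1:50050169-50050418, minus strand): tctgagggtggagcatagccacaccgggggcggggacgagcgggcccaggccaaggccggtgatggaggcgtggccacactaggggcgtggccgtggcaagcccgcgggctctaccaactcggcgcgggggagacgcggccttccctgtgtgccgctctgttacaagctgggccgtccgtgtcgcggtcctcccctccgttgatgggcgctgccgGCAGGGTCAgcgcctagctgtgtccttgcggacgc
The core was searched as TGACNNNGC on both strands over 300 bases, from 250 before to 50 after the start. Of the 7 windows, 2 held it, those of Nfe2l2 (TGACGCCGC, beginning 38 bases after the start) and Sod2 (GCAGGGTCA as read on the strand of the gene, a match on the opposite strand, beginning 35 bases before the start). Among all 33469 windows of this length 12.1% held it. With A or G required before the core, 0 of the 7 windows and 6.3% of all windows matched. Neither gene with a match was called as changed, and the windows of Nqo1, Gclc and Cat held no match in these 300 bases, which says nothing of more distant sequence. The sequence before the start was richest in G and C in Gclc, at 74.8%, lower in Nqo1, at 56.4%, and lowest in Keap1, at 50.8%. Over 300 bases Keap1 held 54.7%, and the median of all windows was 51.7%. The windows with a match were richer than this median, at 68% in Nfe2l2 and 72% in Sod2, but so were those without. Gclc, with no match, was the richest at 76.7%, and Sod1, Cat and Nqo1 held 61.3%, 59.3% and 56.3%.

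Library totals ran from 30601703 to 93728651 counts, and library 2 was the deepest in both groups. The genes had 757 to 15668 counts per library, and all 8 passed the filter on low counts. The lowest count, for Keap1, carries a counting error of 3.63%, and this covers counting error only. Genes were compared by edgeR's quasi-likelihood test over 14715 genes with Benjamini-Hochberg adjustment, and a gene was called at an adjusted p under 0.05.

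With hydrogel, 3 of the 8 genes rose, 1 fell and 4 were not called. Nqo1 rose 2.47-fold, Cat 1.46-fold and Gclc 1.37-fold, while Hmox1 fell to 0.643 of its control level. The sensor pair Nfe2l2 and Keap1 and both superoxide dismutases did not pass the test. Of all genes tested, 34.5% were called, 17.5% as higher and 17.1% as lower, so 4 of 8 is not far from the background. Among genes of like abundance, within 0.5 log2 CPM (the count as a share of the scaled library total) of each member, the share called was higher, from 36.8% around Keap1 to 51.6% around Nfe2l2. The median log2 fold change of the 8 genes was 0.07, against 0.002 over all tested genes. In RNA from whole cultures, fewer cells of a type and less RNA per cell cannot be told apart.

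**Figure D1:**
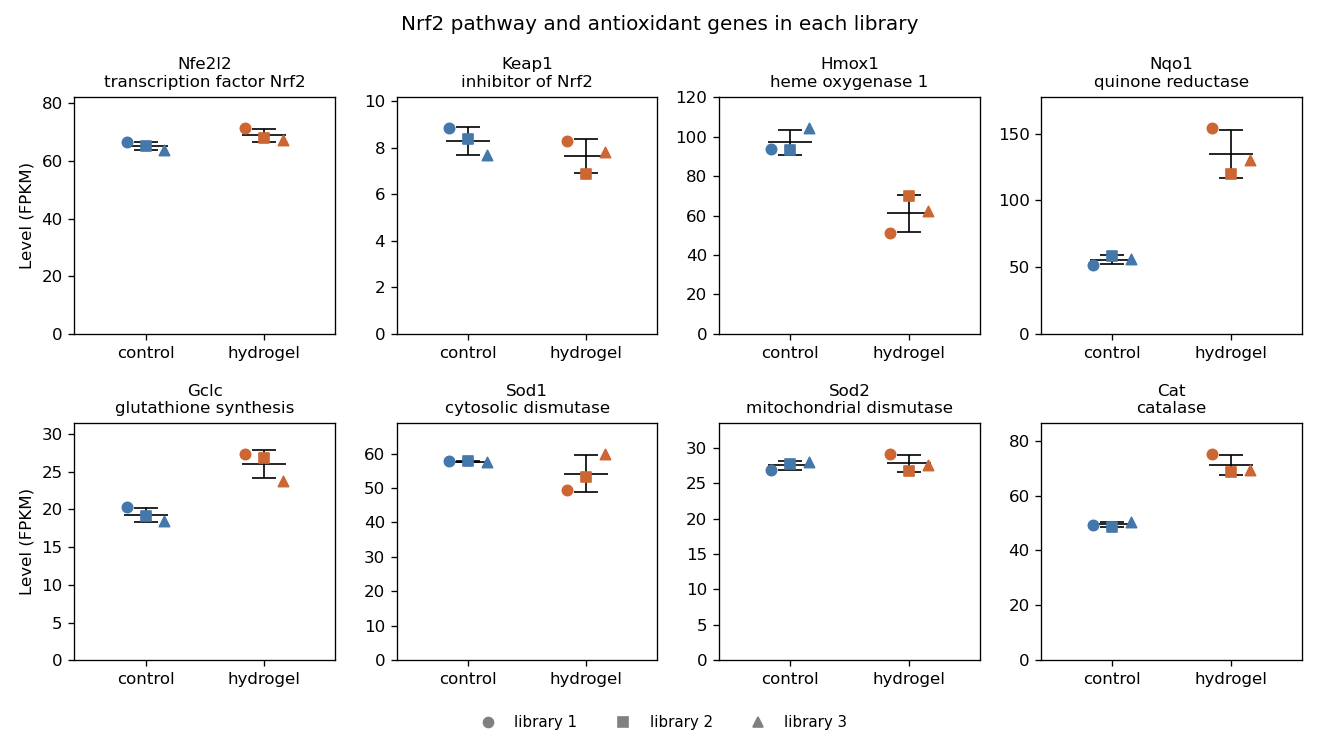
FPKM of the 8 genes (vertical axes, each from 0) in control and hydrogel libraries. Points are libraries, with the shape giving the library number, and bars are the mean ± SD (n = 3). Nqo1, Gclc and Cat lie higher and Hmox1 lower in all 3 hydrogel libraries, while the groups overlap for Keap1, Sod1 and Sod2.

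Nfe2l2 was among the more abundant of the 8 genes. It was measured at 66.6, 65.2 and 63.9 FPKM in control libraries 1 to 3 and at 71.6, 67.9 and 67.2 FPKM in hydrogel libraries 1 to 3. All 3 hydrogel values lay above all 3 controls, although the lowest hydrogel and the highest control value were close. Its log2 fold change was 0.10 (95% interval 0.009 to 0.20) with an unadjusted p of 0.034, and the edgeR adjusted p of 0.0849 did not pass the threshold. A difference in transcript level beyond 14.8% upward lay outside this interval.

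Keap1 had the lowest level of the 8 genes. Its control values were 8.87, 8.37 and 7.68 FPKM, and its hydrogel values were 8.28, 6.86 and 7.82 FPKM. The groups overlapped, with hydrogel library 2 the lowest of all. The log2 fold change was -0.10 (95% interval -0.27 to 0.07, edgeR adjusted p = 0.373). This estimate moved most without hydrogel library 2, to -0.03, and ran from -0.16 (without hydrogel library 1) to -0.06 (without control library 1) when any other library was left out. It was -0.11 with all libraries thinned to the smallest total and -0.09 without the deepest library, control 2. In libraries 1 and 3 of each group alone it was -0.01 (edgeR adjusted p = 0.945), against an adjusted p range of 0.166 to 0.945 over all alternatives.

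Nqo1 encodes a cytosolic quinone reductase that uses NADPH or NADH to reduce quinones by both electrons at once. It was measured at 51.7, 58.4 and 56.2 FPKM in the control libraries and at 154, 120 and 130.0 FPKM in the hydrogel libraries. The lowest hydrogel library stood well above the highest control. The mean went from 55.4 ± 3.39 to 135 ± 17.8 FPKM (SD, n = 3), and the log2 fold change was 1.30 (SE 0.08, 95% interval 1.14 to 1.46, edgeR adjusted p = 3.43e-09). Nqo1 was the only one of the 8 genes called at over 2-fold, a limit that 5.73% of tested genes passed, 3.61% as higher. Of the 969 other tested genes within 0.5 log2 CPM of it, 1 had a larger absolute log2 fold change. Over all tested genes, most of them less abundant, it ranked 396 of 14715 by rise.

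Gclc encodes the catalytic subunit of glutamate-cysteine ligase, the rate-limiting enzyme of glutathione synthesis. Its levels were 20.3, 19.2 and 18.4 FPKM in controls and 27.3, 26.8 and 23.8 FPKM with hydrogel. The groups did not overlap, and hydrogel library 3 lay nearest to the controls. This gave a log2 fold change of 0.46 (SE 0.06, 95% interval 0.33 to 0.59, edgeR adjusted p = 1.93e-05). Among 1781 genes of like abundance, 136 (7.64%) had a larger absolute change.

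Hmox1 encodes heme oxygenase 1, which splits heme into biliverdin, carbon monoxide and iron. Its control libraries held 93.7, 93.2 and 104.5 FPKM, and its hydrogel libraries held 51.3, 69.8 and 62.3 FPKM. Every hydrogel library was below every control, and hydrogel library 1 was the lowest. The mean went from 97.1 ± 6.43 to 61.1 ± 9.32 FPKM (SD, n = 3), with a log2 fold change of -0.64 (SE 0.08, 95% interval -0.82 to -0.46, edgeR adjusted p = 2.50e-05). Of 1166 genes of like abundance, 12 fell by more, and 31 (2.66%) had a larger absolute change. Hmox1 thus moved opposite to Nqo1 and Gclc, the other 2 classical targets measured.

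**Figure D2:**
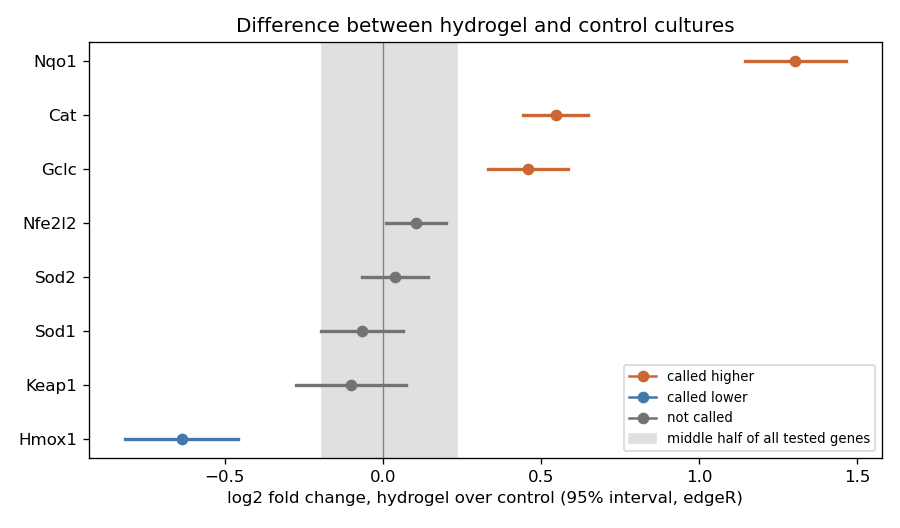
Log2 fold change of each gene, hydrogel over control (horizontal axis), with the edgeR estimate as a point and its 95% interval as a line. Orange marks genes called higher, blue the gene called lower and grey those not called, and the shaded band is the interquartile range of all tested genes, -0.19 to 0.23. The intervals of Nqo1, Cat, Gclc and Hmox1 lie outside the band, while all 4 grey estimates lie inside it.

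Cat encodes catalase, the peroxisomal enzyme that breaks hydrogen peroxide down to water and oxygen. It was measured at 49.4, 48.6 and 50.5 FPKM in controls and at 75.1, 68.7 and 69.4 FPKM with hydrogel. Replicates lay close together, with a coefficient of variation of 1.95% in controls and 4.95% with hydrogel, and the groups did not overlap. For Cat the log2 fold change was 0.55 (SE 0.05, 95% interval 0.44 to 0.65, edgeR adjusted p = 3.71e-07). Of 954 genes of like abundance, 51 (5.35%) had a larger absolute change.

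Sod1 encodes the copper and zinc superoxide dismutase of the cytosol. Its control values were 57.7, 57.7 and 57.6 FPKM, a coefficient of variation of 0.153%. Counting error alone is 2.02% at the lowest Sod1 count, 2456 in hydrogel library 1. At the control counts of 3278, 8639 and 3566 it is smaller but still above 0.153%, so this closeness overstates the precision of the controls. In scaled CPM the controls were 90.7, 91.6 and 91.7. The hydrogel values of Sod1 were 49.3, 53.2 and 59.9 FPKM, with libraries 1 and 2 below all controls and library 3 above them. The estimated log2 fold change was -0.07 (95% interval -0.20 to 0.06, edgeR adjusted p = 0.438), so the interval of the change in level runs from -12.8% to 4.56%.

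Sod2 encodes the manganese superoxide dismutase of the mitochondrial matrix. It was measured at 26.8, 27.8 and 28.0 FPKM in controls and at 29.1, 26.8 and 27.5 FPKM with hydrogel. The groups overlapped, and hydrogel libraries 1 and 2 gave the highest and the lowest of the 6 values. The log2 fold change was 0.04 (95% interval -0.07 to 0.14, edgeR adjusted p = 0.591), which spans changes in level from -4.55% to 10.5%. Both intervals of the dismutases lie below the lower bounds of the intervals for Cat and Gclc, a comparison for which no test was run.

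**Figure D3:**
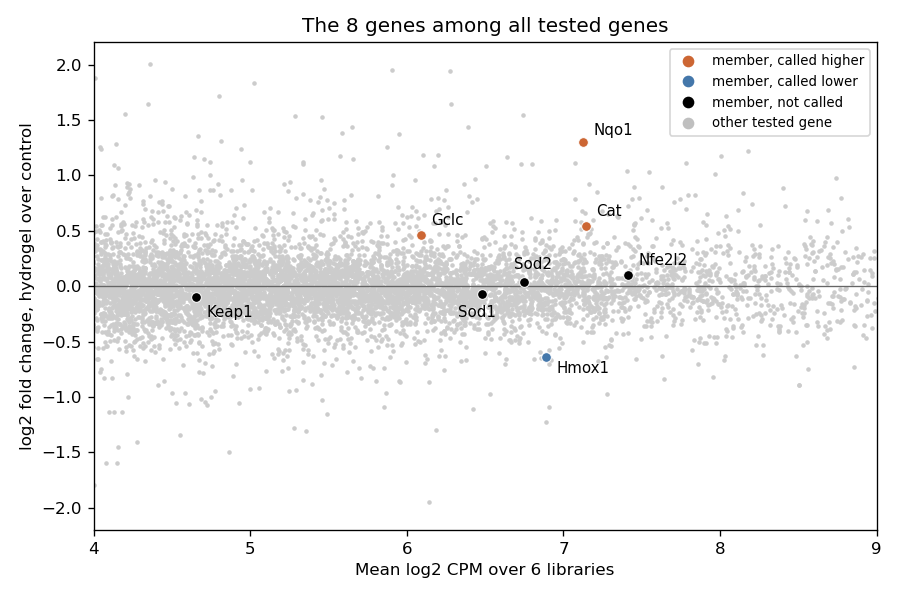
Log2 fold change, hydrogel over control (vertical axis), against mean log2 CPM over 6 libraries (horizontal axis), with the 8 genes labelled. The axes show 7094 of 14715 tested genes, those between 4 and 9 log2 CPM with a log2 fold change between -2.2 and 2.2. Nqo1 sits at the upper edge of the cloud at its abundance and Hmox1 near the lower edge.

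The groups did not overlap in FPKM for 5 of the 8 genes, the 4 called genes and Nfe2l2, with 4 higher and 1 lower. Over all tested genes 47.7% did not overlap, 21.3% higher and 26.5% lower, so this count too is not far from the background. FPKM are scaled by library totals without TMM, and this share was not taken among genes of like abundance. The size of the difference varied among the hydrogel libraries in the 4 called genes. Relative to the control mean, Nqo1 stood at 2.79, 2.16 and 2.35 in hydrogel libraries 1, 2 and 3, Cat at 1.52, 1.39 and 1.40, and Gclc at 1.42, 1.39 and 1.24. Hmox1 stood at 0.528, 0.719 and 0.641. Hydrogel library 1 was therefore farthest from the controls in all 4 called genes. Among the genes not called, library 2 was farthest from the control mean for Keap1, and again library 1 for Nfe2l2, Sod1 and Sod2. This library also stood apart over the whole table: the chi-square per degree of freedom between replicates was 17.4 and 11.3 for its pairs with hydrogel libraries 2 and 3, against 7.58 between those libraries and 6.38 to 8.71 between controls. Without it the log2 fold changes were 1.19 for Nqo1, 0.51 for Cat, 0.43 for Gclc and -0.53 for Hmox1, and all 4 remained called. In the shallower libraries 1 and 3 of each group alone, the 4 genes were also called, with log2 fold changes of 1.42, 0.56, 0.43 and -0.78 in the same order. In the deep libraries, 1 per group and without a test, the hydrogel level was 2.06 times that of the control for Nqo1, 1.41 times for Cat, 1.40 times for Gclc and 0.749 times for Hmox1.

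The order of levels per gene length changed at the top. In controls, mean FPKM descended from Hmox1 through Nfe2l2, Sod1, Nqo1, Cat, Sod2 and Gclc to Keap1, and only the neighbours Sod1 and Nqo1 overlapped in their libraries. With hydrogel the order was Nqo1, Cat, Nfe2l2, Hmox1, Sod1, Sod2, Gclc and Keap1. The ranges over libraries overlapped for Cat and Nfe2l2, Nfe2l2 and Hmox1, Hmox1 and Sod1, and Sod2 and Gclc. Within every hydrogel library, however, Cat exceeded Nfe2l2 and Hmox1 exceeded Sod1. The other pairs changed order in hydrogel library 2, where Hmox1 exceeded Nfe2l2 and Gclc narrowly exceeded Sod2. No test was run on these orders. Nqo1 stood above all others, at 17.6 times the level of Keap1, against 6.67 times in controls.

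Ratios within a library need no scaling between libraries. The FPKM ratio of Nfe2l2 to its inhibitor Keap1 was 7.51, 7.79 and 8.32 in control libraries and 8.65, 9.90 and 8.59 in hydrogel libraries. The groups did not overlap, with a mean of 7.87 ± 0.41 against 9.04 ± 0.74 (SD, n = 3; exact two-sided permutation p = 0.1, the smallest that 3 against 3 libraries allow). The nearest values, 8.32 in control library 3 and 8.59 in hydrogel library 3, were close. Keap1 in that hydrogel library carries a counting error of 3.63%. Without hydrogel library 2 the log2 difference went from 0.20 to 0.13. The ratio of Sod2 to Sod1 was 0.465, 0.481 and 0.486 in controls and 0.591, 0.503 and 0.460 with hydrogel. Here the groups overlapped (exact two-sided permutation p = 0.5), and without hydrogel library 1 the log2 difference fell from 0.11 to 0.01. The ratio of Nqo1 to Hmox1, chosen after their values were seen, went from 0.572 ± 0.048 to 2.27 ± 0.67 (SD, n = 3), a description with no test. Hmox1 exceeded Nqo1 in each control library, and Nqo1 exceeded Hmox1 in each hydrogel library.

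**Figure D4:**
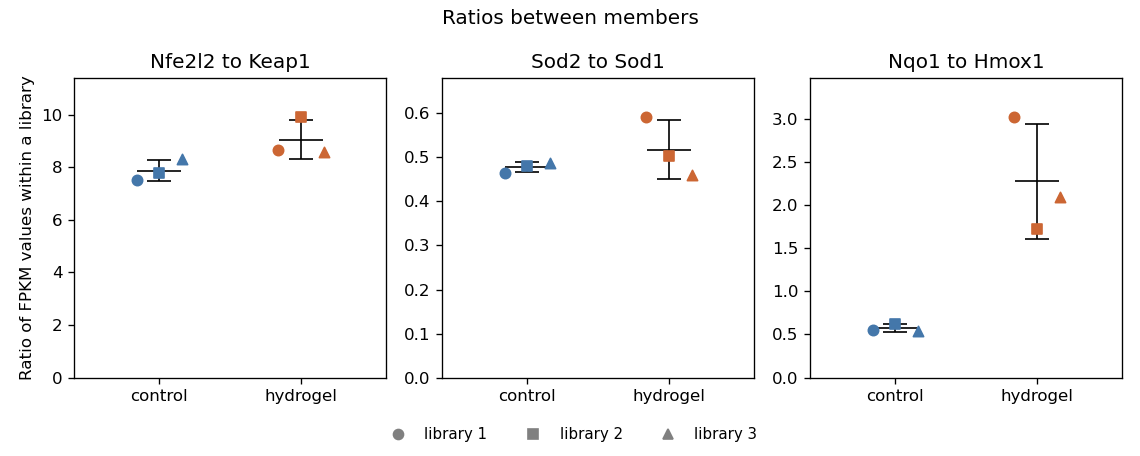
Ratio of FPKM values within each library (vertical axes, each from 0) for 3 pairs of genes, in control and hydrogel libraries. Points are libraries, with the shape giving the library number, and bars are the mean ± SD (n = 3). Nqo1 to Hmox1 lies between 0.538 and 0.626 in controls and between 1.72 and 3.01 with hydrogel, while Sod2 to Sod1 overlaps between the groups.

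Nqo1, the called gene with the largest change, was compared with the 10248 other genes at a mean of 5 CPM or more by the correlation of log2 CPM over the 6 libraries. The most alike were ENSRNOG00000043451 and ENSRNOG00000016447, each with a Pearson r of 0.999. The first rose from 2487 ± 136 to 4956 ± 494 CPM and the second from 33.0 ± 0.81 to 50.4 ± 3.12 CPM (SD, n = 3), with edgeR adjusted p-values of 3.98e-09 and 1.68e-06. Both were picked for likeness to Nqo1 over the same libraries, so these p-values give no separate support. The correlation is a description over 6 libraries that fall into the same 2 groups, and 130 genes had an r over 0.99.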

How the data were processed

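RNA sequencing of 3 control and 3 hydrogel libraries was analysed. Per the labels' protocols, TRIzol RNA was made into libraries with a VAHTS Universal V6 kit. The authors deposited raw counts per gene and FPKM per library, per the file headers, and the FPKM are those counts divided by library total and gene length. Aligner, counter and strandedness are not given in the sources used here. The submitters' processing notes list mouse builds (GRCm38, mm10) although the identifiers and labels are rat. The genes counted are therefore those of a rat annotation, but its release and the assembly are not given. The coordinates printed are RefSeq's on GRCr8.

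Counts were fitted with edgeR 4.0.16 in R 4.3.3 (filterByExpr, TMM scaling, quasi-likelihood F test, group as the term), with Benjamini-Hochberg adjustment over 14715 genes. Fold changes are hydrogel over control, with 95% intervals derived from the F test. The test was also run on independent simulated counts, with dispersions taken from these libraries and far fewer changed genes. The outcome is not reported here and lends no support to the calls. Alternatives were other scalings and filters, DESeq2 1.42.0, limma 3.58.1 on log2 FPKM, thinning, a replicate block, other thresholds, libraries 1 and 3 alone and leaving out each library. All 8 members were named, with the 2 genes most like the most changed member. The members and lists were chosen with earlier results of these data known. The lists of further pathway genes and cell type markers need gene names for the other identifiers and were not analysed here.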

Additional observations from a re-analysis of the deposited data

How the results depend on the processing

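The 3 rises, the fall and the 4 genes not called kept their direction and their side of the threshold in all 152 pairs of gene and alternative (19 for each of the 8 genes). The log2 fold change ranged from 1.19 to 1.42 for Nqo1, 0.51 to 0.56 for Cat, 0.41 to 0.51 for Gclc and -0.78 to -0.53 for Hmox1. The highest adjusted p of these 4 was 0.0142, for Hmox1 by limma on log2(FPKM + 1) with no filter. For Nfe2l2 the adjusted p ranged from 0.0603 to 0.234. The estimates of genes not called were less steady. Keap1 ranged from -0.16 to -0.01, Sod1 from -0.14 to -0.007 and Sod2 from 0.004 to 0.07.

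With a fold limit of 2 added, 1 gene was called higher, 0 lower and 843 in the whole table, since the limit itself removes smaller changes. Leaving out 1 library gave 3 genes higher and 1 lower each time, 3977 to 4695 calls in the whole table, and 5 to 6 members without overlap. The log2 difference of the Nfe2l2 to Keap1 ratio ranged from 0.13 to 0.24 and that of Sod2 to Sod1 from 0.01 to 0.19. Library totals in place of TMM moved the split of all calls to 2335 higher and 2929 lower, and the median log2 fold change of all genes by less than 0.1. A replicate block on the sample number called 5246 genes, with the same calls for the members. Correlations of same-numbered libraries' deviations were 0.022, 0.051 and 0.013, all small, and each library correlated best with its own number. The largest was for library 2, the deepest in both groups, and shared depth was not separated from pairing. The sample number is not part of the design. With A or G required before the motif core, 0 windows of members matched in place of 2. The pathway lists were not run.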
